A study of Mus musculus with 2 samples.

Results

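Immediate-early transcription factors were represented by 10 listed genes, Fos, Fosb, Jun, Junb, Jund, Egr1, Atf3, Ier2, Ier3 and Klf4, all of which were among the 32285 genes counted. The name is that of the list, which also holds the constitutive Jund and the small immediate-early proteins Ier2 and Ier3. The 10 genes were chosen by name, and their levels, the share of cells with a UMI (a counted mRNA molecule) and their joint detection were compared across 5 classes of cells. The study examined senescent cells of the ageing skeleton, and its single-cell sample came from INK-ATTAC mice, which carry a FLAG-tagged caspase 8 cassette under a fragment of the p16Ink4a promoter that kills cells only when the dimerizing drug AP20187 is given. The sample was 1 pool of cells from 3 male mice, 24 months old and given no drug, from femur and tibia. Marrow was digested with Liberase DL at body temperature and the crushed bone with collagenase in repeated rounds, the fractions were joined, erythrocytes were lysed, and lineage-depleted cells negative for CD45 and for the dead-cell dye SYTOX were sorted and loaded for 10x 3′ sequencing. No younger or AP20187-treated single-cell sample and no undigested control was compared here, and the barcodes carry no mark of the marrow or the bone fraction.

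Immediate-early genes are transcribed within minutes of a stimulus from factors already present in the cell, without new protein synthesis, and their mRNAs are short-lived. Fos, Fosb and the Jun proteins pair through leucine zippers into the AP-1 transcription factor, Egr1 is a zinc finger activator, Atf3 is a stress-induced member of the ATF/CREB family, and the ERK, JNK and p38 kinases, serum response factor with its Elk partners and CREB are the usual routes of induction. The same genes are known to be switched on while solid tissue is digested and sorted, so in dissociated bone their levels can reflect the state of a cell in the animal, its handling, or both.

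In the GENCODE M21 annotation of GRCm38, the same assembly as the mm10 build named by the authors, Fos (ENSMUSG00000021250) lies on chromosome 12, 85473890 to 85477273, plus strand. Fosb lies on chromosome 7, 19302696 to 19310051, minus strand, Jun on chromosome 4, 95049034 to 95052222, minus strand, Junb on chromosome 8, 84974484 to 84978718, minus strand and Jund on chromosome 8, 70698949 to 70700616, plus strand. Atf3 lies on chromosome 1, 191170296 to 191218039, minus strand, Ier2 on chromosome 8, 84661331 to 84662852, minus strand, Ier3 on chromosome 17, 35821684 to 35822923, plus strand and Klf4 on chromosome 4, 55527143 to 55532466, minus strand. None of the 10 overlapped another gene on its own strand. Junb overlaps Prdx2 on the other strand, a gene at 2761 CPM (UMIs of a gene per 1000000 UMIs of the cell or class) in the erythroid cells, and the sources used here do not say whether counting used strand, so the Junb level there is uncertain. Jun, Jund and Atf3 also overlap annotated genes on the other strand (Junos, Gm11175 and Gm24748).

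RefSeq promoters (GRCm38.p6) were at hand for 8 of the 10 genes. The stretch from -120 to -11 before the RefSeq start site is shown for the 2 Fos and 2 inducible Jun genes, the AP-1 genes on which the results on joint detection turn, with matches to the motifs searched in capitals.
Fos, chr12:85473770-85473879, plus strand: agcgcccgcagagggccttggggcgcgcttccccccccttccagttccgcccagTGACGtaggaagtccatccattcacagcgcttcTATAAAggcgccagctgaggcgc
Fosb, chr7:19310056-19310165, minus strand: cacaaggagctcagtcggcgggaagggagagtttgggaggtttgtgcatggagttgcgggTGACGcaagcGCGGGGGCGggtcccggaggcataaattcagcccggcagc
Jun, chr4:95052233-95052342, minus strand: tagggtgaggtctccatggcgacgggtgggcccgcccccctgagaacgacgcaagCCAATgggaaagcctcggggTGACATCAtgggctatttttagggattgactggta
Junb, chr8:84978759-84978868, minus strand: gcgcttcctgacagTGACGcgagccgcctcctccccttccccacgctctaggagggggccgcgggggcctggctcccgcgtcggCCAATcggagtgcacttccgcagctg
The capitals mark TATAAA from -33 to -28 of Fos, the cyclic AMP response element core TGACG from -66 to -62 of Fos, from -60 to -56 of Fosb and from -106 to -102 of Junb, TGACATCA from -45 to -38 of Jun, the EGR site GCGGGGGCG from -50 to -42 of Fosb, and CCAAT from -65 to -61 of Jun and from -36 to -32 of Junb. Over the 250 bases before the start site, on either strand, TGACG was found in 5 of the 8 genes against 17.9% of 27025 promoters. TGACATCA was found in 1 of the 8 against 3.02%, TATAAA in 1 against 12.97%, GCGTGGGCG or GCGGGGGCG in 2 against 3.05%, CCAAT in 3 against 34.5%, and the GC box GGGCGG, not capitalised here, in 6 against 32.9%. A GC box from -46 to -41 of Fosb overlaps its EGR site. TGACGTCA, which holds TGACG, the AP-1 site TGACTCA or TGAGTCA, and the CArG box bound by serum response factor had no match within this window in the 8 promoters, against 1.62%, 4.43% and 1.40% of all promoters.

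The 2 deposited replicates, numbered 1 and 2 in the labels, had 10928 of 11056 barcodes in common, and their counts differed by less than sampling noise. They were therefore read as 2 runs of the same cells, called lanes here although the labels do not say so, summed per barcode and counted as 1 sample. There was therefore no replicate of the animals and no test between classes. The 95% intervals of levels and ratios cover counting error only and were computed from the mean of both lanes, because a molecule may be counted in each. Those of shares are exact binomial intervals over the cells of this pool, and neither kind holds the difference between mice. Of 9573 barcodes with at least 200 genes and at most 20% mitochondrial UMIs, 1877 were LEPR stromal cells (at least 1 UMI of Lepr and 5000 CPM of Cxcl12), the perivascular stroma that supports blood stem cells. Gates of at least 3 markers and 2000 CPM gave 88 fibroblasts, 54 endothelial cells, 107 megakaryocytes and 6653 erythroid cells. Median depth, both lanes summed, was 5188 UMIs in LEPR stromal cells, 9231 in fibroblasts, 3171 in endothelial cells, 7065 in megakaryocytes and 27902 in erythroid cells, so shares of cells were also taken after thinning each cell to 2000 UMIs. All 8 LEPR stromal markers were found in at least 10% of LEPR stromal cells, all 13 fibroblast markers in at least 10% of fibroblasts, and their summed levels were 31113 and 19401 CPM in their own class. Fibroblast markers stood at 721 CPM in LEPR stromal cells, with 1 of 13 at 0, and LEPR stromal markers at 3750.1 in the endothelial cells, with 1 of 8 at 0. Of the other lists, 10 of 11 endothelial, 9 of 9 megakaryocyte and 15 of 15 erythroid markers were found in at least 10% of their class. The gates were set on these same lists, on Lepr and Cxcl12 alone for LEPR stromal cells and without globins for erythroid cells. Levels in their own class thus follow in part from the gates and are no check of identity. Cxcl12 alone gave 22189 CPM of the LEPR stromal sum. Erythroid cells made up 69.5% of the barcodes although the labels call the sample mesenchymal, and erythroid markers stood at 2629 CPM in LEPR stromal cells and 6235 in fibroblasts. 46 barcodes met both the LEPR and the fibroblast gate and 60 both the LEPR and the erythroid gate, and all were counted as LEPR stromal.

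Summed over the 10 genes, fibroblasts had the highest level, endothelial and LEPR stromal cells came next and close together, and megakaryocytes and erythroid cells were lowest. The 10 genes together reached 11712 CPM in fibroblasts (11698 in lane 1 and 11725 in lane 2), 3469.8 in endothelial cells (3400.2 and 3537), 3231 in LEPR stromal cells (3243 and 3219), 884 in megakaryocytes (902 and 866) and 812 in erythroid cells (809 and 815). The lanes of each class lay close together beside the differences between fibroblasts, LEPR stromal cells and the blood lineage classes, but in endothelial cells the interval, 3114 to 3855, held the LEPR stromal level. The log2 ratio of LEPR stromal cells to fibroblasts was -1.86 (-1.90 to -1.81), to megakaryocytes 1.87 (1.78 to 1.97) and to erythroid cells 1.99 (1.97 to 2.02). Against endothelial cells it was -0.10 (-0.26 to 0.05), and the sign turned to 0.24 with the mean of each cell's own value and to 0.19 without the barcode with most UMIs of these genes in each class, which in endothelial cells held 21.4% of them. Megakaryocytes and erythroid cells had a log2 ratio of 0.12 (0.03 to 0.21), but the order turned with the mean of each cell's own value, 737 CPM in megakaryocytes and 1119 in erythroid cells. The median cell stood at 987 CPM in LEPR stromal cells and 724 in erythroid cells, much closer than the summed levels, which in LEPR stromal cells rested on a minority of cells.

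Gene by gene, 9 of the 10 stood at least 2-fold lower in LEPR stromal cells than in fibroblasts, against 8.58% of the 11236 genes with at least 50 UMIs in these classes, and 0 at least 2-fold higher, against 23.8%. Jund was the exception. The median log2 ratio was -2.20 for the 10 genes and 0.29 for all genes. Against endothelial cells, 3 of the 10 (Atf3, Ier2 and Klf4) stood at least 2-fold lower in LEPR stromal cells, against 11.6% of genes, and 0 at least 2-fold higher, against 34.8%. Against megakaryocytes, 6 of the 10 stood at least 2-fold higher in LEPR stromal cells, against 44.8% of genes. Against erythroid cells it was 8 of the 10, against 46.5%. The last of these left out Jun and Ier2. With so many genes past the same mark, the counts against megakaryocytes and erythroid cells do not by themselves set the members apart, and the medians of members and all genes were 1.63 against 0.72 and 2.04 against 0.79. No member stood at least 2-fold lower in LEPR stromal cells than in megakaryocytes or erythroid cells, against 16.1% and 19.4% of genes. Fibroblasts stood at least 2-fold above endothelial cells in 7 of the 10, against 22.5% of genes, and at least 2-fold below in 0, against 11.8%. Megakaryocytes stood at least 2-fold above erythroid cells in 5 of the 10, against 23.6% of genes, and at least 2-fold below in 0, against 27.3%. These 5 (Fos, Fosb, Egr1, Atf3 and Klf4) rested on few megakaryocytes, since for each gene 1 barcode held 37.5% (Egr1) to 52.9% (Fos) of its UMIs. Without that barcode in each class the log2 ratio was 0.71 (-0.0045 to 1.35) for Fos, under the 2-fold mark, and ran from 1.49 for Egr1 to 2.24 for Atf3 in the other 4.

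**Figure D1:**
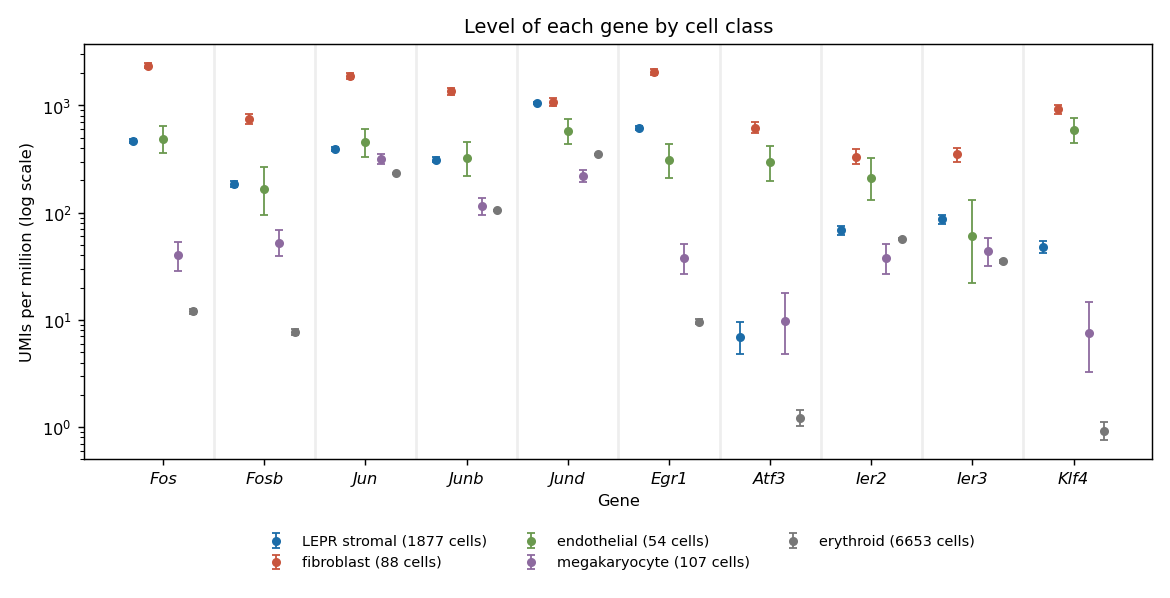
Level of each gene (horizontal axis) in CPM on a log axis, from counts summed over all cells of a class, with exact 95% intervals for counting error. Fibroblasts lie highest for 10 of the 10 genes, with Jund at 1086 against 1050.5 in LEPR stromal cells, and erythroid cells span from 0.923 for Klf4 to 350.0 for Jund.

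The Fos genes encode the partners that AP-1 gains on stimulation, since Fos proteins do not pair with themselves. Fos stood at 469 CPM in LEPR stromal cells (469.6 in lane 1 and 468 in lane 2), at 2358 in fibroblasts (2354 and 2362) and at 491 in endothelial cells (448 and 532). It stood at 39.9 in megakaryocytes (41.9 and 37.9) and at 12.1 in erythroid cells (12.1 and 12.1). Each lane gave the same order of classes except that endothelial and LEPR stromal cells, which lay within counting error of each other, changed places in lane 1. The LEPR stromal level of Fos was 38.9-fold that of erythroid cells, a log2 ratio of 5.28 (5.18 to 5.38), and 5.03-fold below that of fibroblasts, a log2 ratio of -2.33 (-2.43 to -2.23). The megakaryocyte value rested on few cells, since 1 barcode held 52.9% of its Fos UMIs. Fosb, a close relative of Fos, had a like pattern, with 185 CPM in LEPR stromal cells (186 and 183 by lane), 749 in fibroblasts (757 and 741), 165 in endothelial cells (143 and 187), 52.5 in megakaryocytes (54.3 and 50.8) and 7.70 in erythroid cells (7.38 and 8.01). The log2 ratio of LEPR stromal to erythroid cells was 4.58 (4.45 to 4.72) for Fosb.

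The Jun genes encode the AP-1 subunits that every Fos protein needs, and they differed less than Fos and Fosb between LEPR stromal and erythroid cells. Jun stood at 389 CPM in LEPR stromal cells (390.3 in lane 1 and 387 in lane 2), 1887 in fibroblasts (1826 and 1946), 456 in endothelial cells (428 and 483), 319.8 in megakaryocytes (320.3 and 319) and 233 in erythroid cells (233 and 234). From LEPR stromal to erythroid cells the log2 ratio of Jun was 0.74 (0.67 to 0.80), under the 2-fold mark, and with the mean of each cell's value it turned to -0.10. The log2 ratio to fibroblasts was -2.28 (-2.39 to -2.17). Junb, which pairs with Fos but activates AP-1 sites more weakly than Jun, stood at 312 in LEPR stromal cells (312 and 312), 1364 in fibroblasts (1401 and 1327), 320.4 in endothelial cells (316 and 325), 114 in megakaryocytes (116 and 113) and 105 in erythroid cells (105 and 105). Megakaryocytes and erythroid cells did not differ in Junb beyond counting error, with a log2 ratio of 0.12 (-0.15 to 0.38). Jund, the constitutive Jun gene, which is known to change little on stimulation, was the only member whose level did not differ beyond counting error between LEPR stromal cells, 1050.5 (1056 and 1046), and fibroblasts, 1086 (1075 and 1096), with a log2 ratio of -0.05 (-0.18 to 0.08), which turned to 0.36 with classes from clusters. It stood at 576 in endothelial cells (580.3 and 571), 221 in megakaryocytes (232 and 210.5) and 350.0 in erythroid cells (349 and 351). Megakaryocytes were thus the lowest class for Jund, -0.66 (-0.85 to -0.48) on the log2 scale against erythroid cells.

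Egr1, a zinc finger factor induced through serum response factor, had the largest log2 ratio between LEPR stromal and erythroid cells of the 10 genes, 5.998 (5.90 to 6.10). Its level was 617 CPM in LEPR stromal cells (619 in lane 1 and 615 in lane 2), 2046 in fibroblasts (2052 and 2040.4), 310.4 in endothelial cells (295 and 325), 37.5 in megakaryocytes (36.2 and 38.8) and 9.65 in erythroid cells (9.67 and 9.63). Endothelial cells, whose Fos, Fosb, Jun and Junb did not differ from LEPR stromal cells beyond counting error, were lower in Egr1, with a log2 ratio of 0.99 (0.48 to 1.55) for LEPR stromal over endothelial cells, and 1.42 (0.82 to 2.09) without the barcode with most Egr1 UMIs in each class. For Fos, 1 endothelial barcode held 38.8% of the UMIs, and leaving out the barcode with most Fos UMIs in each class turned the log2 ratio from -0.07 (-0.47 to 0.37) to 0.57 (0.05 to 1.14). The same step gave 0.65 (-0.20 to 1.65) for Fosb, 0.11 (-0.38 to 0.65) for Jun and 0.32 (-0.26 to 0.97) for Junb.

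Atf3 and Klf4 separated LEPR stromal cells from fibroblasts most. Klf4, a zinc finger factor that blood flow is known to induce in endothelium, stood at 48.2 CPM in LEPR stromal cells (46.6 in lane 1 and 49.8 in lane 2), 918 in fibroblasts (926 and 911) and 586 in endothelial cells (601 and 571), against 7.50 in megakaryocytes (9.53 and 5.54) and 0.923 in erythroid cells (0.923 and 0.922). The log2 ratio of LEPR stromal cells to fibroblasts was -4.25 (-4.48 to -4.03) and that to endothelial cells -3.60 (-4.02 to -3.17), and no endothelial barcode held more than 11.1% of the Klf4 UMIs there. Atf3, induced by the integrated stress response and by JNK, was nearly undetected in LEPR stromal cells, with 37 and 37 UMIs in lanes 1 and 2 over 1877 cells, or 6.88 CPM (4.85 to 9.49). It stood at 621 in fibroblasts (621 and 620.2 by lane), so that the log2 ratio of LEPR stromal cells to fibroblasts was -6.49 (-7.03 to -5.999), while Fos differed by -2.33 (-2.43 to -2.23). In endothelial cells Atf3 stood at 295 (336 and 256), but 1 barcode held 61.02% of these UMIs and only 5 of 54 cells had any. In the blood lineage classes it stood at 9.85 in megakaryocytes, from 11 and 10 UMIs by lane, and 1.22 in erythroid cells, from 125 and 135.

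Ier2 and Ier3, small immediate-early proteins of which Ier3 is also a target of NF-kB, varied least between LEPR stromal and erythroid cells beside Jun. Ier2 stood at 68.4 CPM in LEPR stromal cells (71.2 in lane 1 and 65.7 in lane 2), 334 in fibroblasts (346 and 322), 210.3 in endothelial cells (173 and 246), 37.5 in megakaryocytes (40.03 and 35.1) and 56.8 in erythroid cells (56.5 and 57.0). Its log2 ratio of LEPR stromal to erythroid cells was 0.27 (0.11 to 0.42), the smallest of the 10, and turned to -0.16 with the mean of each cell's value. Ier3 stood at 86.4 in LEPR stromal cells (86.7 and 86.2), 349 in fibroblasts (338 and 359), 60.1 in endothelial cells (81.4 and 39.4), 43.6 in megakaryocytes (40.99 and 46.2) and 35.3 in erythroid cells (34.95 and 35.6). The endothelial value of Ier3 rested on 8 and 4 UMIs by lane and did not differ from that of LEPR stromal cells beyond counting error, 0.52 (-0.61 to 1.98).

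At equal depth, most members were found in a minority of LEPR stromal cells. After thinning to 2000 UMIs, which left 1751 of 1877 LEPR stromal cells, 87 of 88 fibroblasts, 42 of 54 endothelial cells, 87 of 107 megakaryocytes and 6321 of 6653 erythroid cells, Fos had a UMI in 19.2% (17.4% to 21.1%) of LEPR stromal cells, 59.8% (48.7% to 70.1%) of fibroblasts and 1.84% (1.52% to 2.20%) of erythroid cells. Without thinning these shares were 23.6%, 72.7% and 12.7%, so most of the erythroid share went with depth. Egr1 was found in 26.1% (24.1% to 28.2%) of thinned LEPR stromal cells and 1.72% (1.42% to 2.08%) of erythroid cells, Fosb in 13.7% and 1.77%, and Klf4 in 6.34% and 0.206%. These 4 genes and Atf3 had the lowest shares in erythroid cells. For Jun the shares were 20.6% (18.7% to 22.6%) of LEPR stromal cells against 36.2% (35.03% to 37.4%) of erythroid cells, and for Ier2 8.74% against 12.3%. For these 2 genes the shares go against the order of the CPM, so no order of the classes is read from them. Jund was found in 61.1% (58.8% to 63.4%) of LEPR stromal cells, the only member with a UMI in over 50% of them, and in 48.1% of erythroid cells. Klf4 was found in 54.8% of 42 thinned endothelial cells and 51.7% of 87 fibroblasts, while Atf3 was found in 27.6% of fibroblasts and 1.14% of LEPR stromal cells. None of the 5 classes can be taken to lack these genes, so a background share from free RNA could not be set from a negative class.

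**Figure D2:**
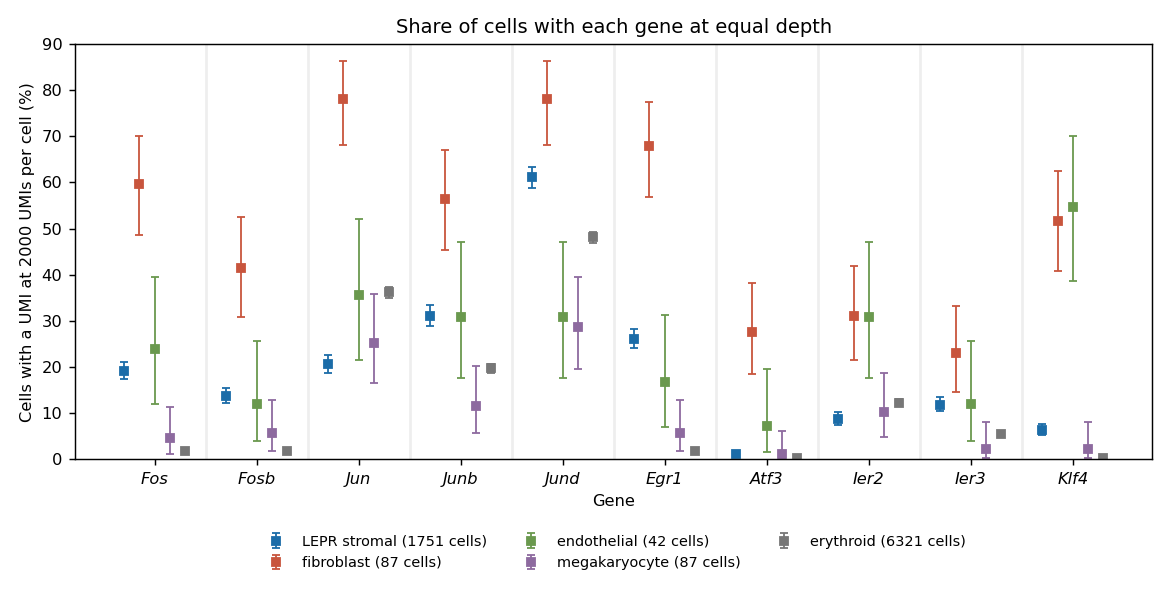
Share of cells with at least 1 UMI of each gene after thinning every cell to 2000 UMIs, with exact 95% intervals (Clopper-Pearson). Fibroblasts lie at or near the top for most genes, Klf4 is found in 54.8% of endothelial cells and 51.7% of fibroblasts, and Fos, Fosb, Egr1, Atf3 and Klf4 lie near the floor in erythroid cells (0.206% for Klf4 to 1.84% for Fos).

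Within LEPR stromal cells the UMIs of most members lay in few cells. Taking, for each gene, the 10% of cells with the most UMIs of it, these cells held 86.5% of the Fos UMIs, 85.2% of Fosb, 84.6% of Jun and 74.9% of Egr1, against 56.2% of Junb and 40.9% of Jund. No single cell dominated, since the cell with most UMIs held 2.70% of the Fos UMIs and 2.25% of the Egr1 UMIs. The number of members found per cell was correspondingly uneven. Of the 1751 thinned LEPR stromal cells, 26.4% had none of the 10 genes, where the product of the single shares gives 8.16%, and 257 (14.7%) had 5 or more, where it gives 36.7 cells (2.10%). These 257 cells held 63.3% of all UMIs of the 10 genes in the class, with 29.1 UMIs of them per 2000 against 2.91 in the other cells. Choosing cells by these same genes makes part of this difference. In fibroblasts 46 of 87 cells (52.9%) had 5 or more, fewer than the 67.3% given by the single shares, and cells with 1, 2 or 3 and with 8, 9 or 10 were more frequent than that product gives. In erythroid cells 47 of 6321 (0.744%) had 5 or more, where the single shares give 4.61 cells (0.0729%), and the other erythroid cells had 2.21 UMIs of the members per 2000. Over 20 draws of the thinning the share with 5 or more ran from 13.99% to 15.1% in LEPR stromal cells and from 51.7% to 59.8% in fibroblasts.

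**Figure D3:**
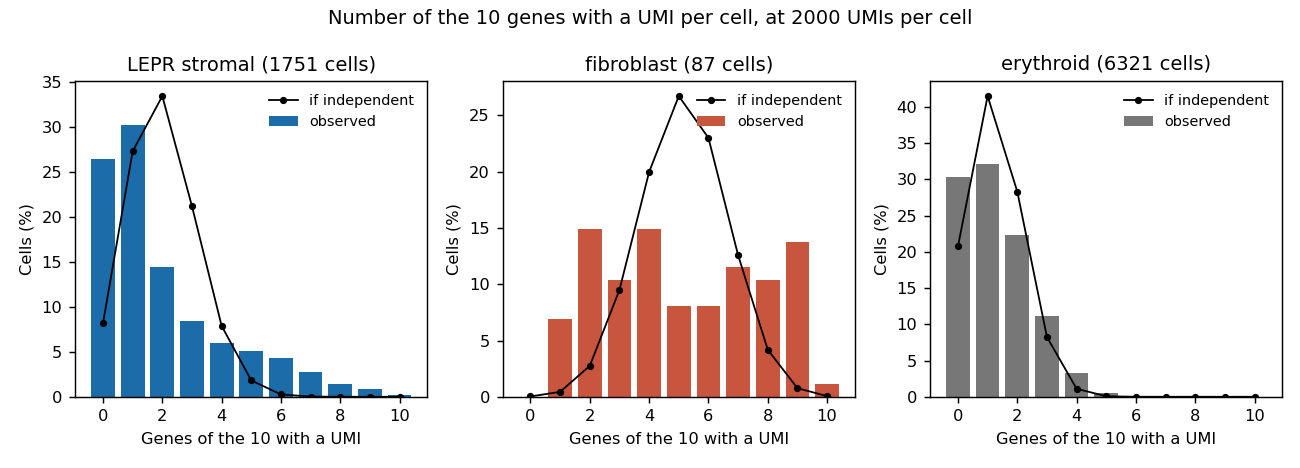
Share of cells (vertical axis) by how many of the 10 genes had a UMI at 2000 UMIs per cell, in 3 classes, with bars for the cells and black points for the product of the single shares. LEPR stromal cells exceed the points at 0 and 1 genes (for 0, 26.4% against 8.16%) and from 5 genes upwards, and fibroblasts at 1 to 3 and at 8 to 10 genes.

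Pairs of members were found in the same LEPR stromal cell more often than the product of their shares. Of 45 pairs, 39 had at least 5 expected cells, all of these 39 exceeded their expectation, and the ratio of observed to expected cells ran from 1.32 to 3.62 with a median of 2.38. Fos and Egr1 were found together in 280 cells against 87.7 expected, a ratio of 3.19. Fos and Fosb shared 156 cells against 46.1, a ratio of 3.39, and Fosb and Klf4 shared 55 against 15.2, the highest ratio of 3.62. All 9 pairs with Jund lay at the low end, from 1.32 with Junb to 1.55 with Atf3, which its own high share bounds, since a gene found in 61.1% of cells cannot exceed its expectation by more than the inverse of that share. In erythroid cells all 28 pairs with 5 expected cells also exceeded 1, with a median of 1.51 and a highest ratio of 2.0. In the 87 fibroblasts 38 of 45 pairs exceeded 1, with a median of 1.23, and that count ran from 38 to 45 over 20 draws of the thinning. Over the same number of draws the median ratio in LEPR stromal cells ran from 2.26 to 2.47. Fibroblast ratios are bounded in the same way as those of Jund, since Jun and Jund were each found in 78.2% and Egr1 in 67.8% of these cells, so the medians of the classes are not compared. The cells of a class come from the same pool, so these ratios are descriptions without a test. How often pairs of other genes exceed their expectation at this depth was not measured in any class. The counts of pairs above 1 therefore do not set the members apart from other genes.

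**Figure D4:**
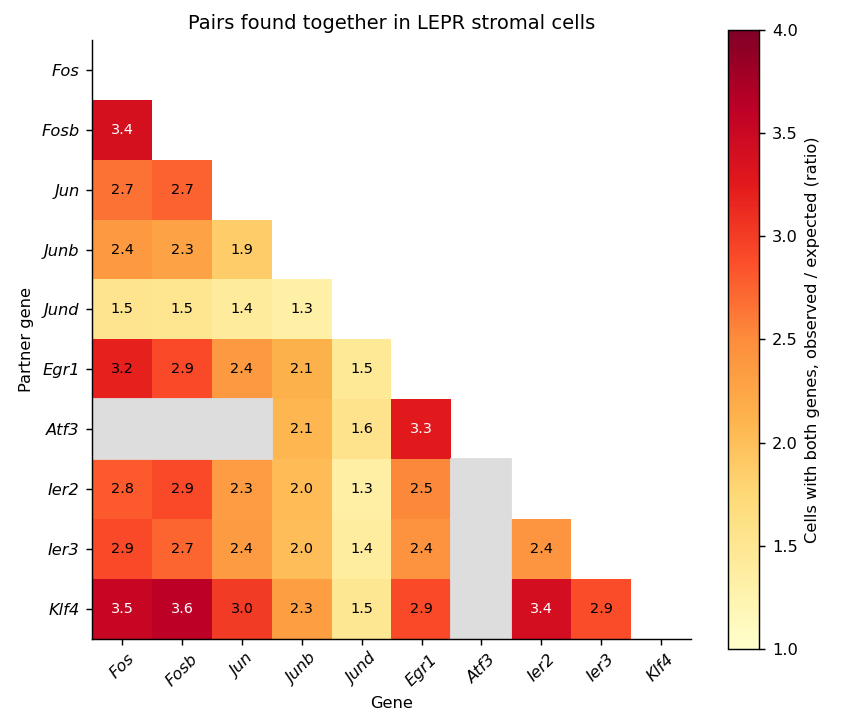
Cells with both genes of a pair, as the ratio of observed to expected number, among 1751 LEPR stromal cells at 2000 UMIs, with grey squares for pairs under 5 expected cells. The row and column of Jund hold the lowest ratios, 1.32 to 1.55, and the pairs of Klf4 with Fos and Fosb the highest, up to 3.62.

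Cells with a Fos UMI had every other member more often than the rest of the LEPR stromal cells, by widely different amounts. At 2000 UMIs, 336 LEPR stromal cells had a Fos UMI and 1415 had none. Egr1 was found in 83.3% (78.9% to 87.2%) of the cells with Fos and 12.5% (10.8% to 14.3%) of the cells without. Fosb was found in 46.4% (41.0% to 51.9%) of the cells with Fos and 5.94% (4.76% to 7.30%) of the cells without. Among the Jun genes, Jun was found in 54.8% with Fos and 12.5% without, Junb in 74.1% with Fos and 20.9% without and Jund in 93.5% with Fos and 53.4% without. Ier3 was found in 34.5% with Fos and 6.50% without and Ier2 in 24.4% with Fos and 5.02% without. Jund differed least in proportion, which its own high share bounds. A gene found in 53.4% of the cells without Fos cannot rise by more than the inverse of that share. The place of Jund among the members is therefore not read from this proportion. In fibroblasts Jund was found in 76.9% of the 52 cells with Fos and 80.0% of the 35 without. Atf3 was rare both with and without Fos, at 4.17% (2.30% to 6.89%) of the LEPR stromal cells with Fos and 0.424% (0.16% to 0.92%) of those without. In proportion this was the largest difference, but it rested on 14 and 6 cells, too few to set the place of Atf3 among the members. In fibroblasts with Fos, Atf3 was found in 40.4% (27.01% to 54.9%). Klf4 was found in 22.3% of LEPR stromal cells with Fos, 2.54% of those without, and 59.6% of fibroblasts with Fos. Egr1 was found in 90.4% (78.97% to 96.8%) of fibroblasts with Fos. These are cells of 1 pool, and the difference between the classes was not tested.

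Other genes of the response moved with Fos in the same cells. The 17 feedback genes, which encode phosphatases, RNA decay factors and inhibitors that end the response, summed in LEPR stromal cells with and without Fos to 6378 against 2159.7 CPM, a log2 ratio of 1.56 (1.48 to 1.64). The 14 other immediate-early genes summed to 2279.8 against 687 CPM, a log2 ratio of 1.73 (1.59 to 1.87). Btg2, an antiproliferative feedback gene, stood at 946 against 111 CPM, a log2 ratio of 3.09 (2.81 to 3.38), and Dusp1, the phosphatase that inactivates the MAP kinases, at 202 against 32.9 CPM, a log2 ratio of 2.62 (2.06 to 3.19). The list was uneven, since the RNA decay factor gene Zfp36 had a log2 ratio of 1.96 and the cytokine inhibitor gene Socs3 one of 0.63 (0.24 to 1.01). By contrast the 10 upstream factors and kinases, which act through phosphorylation rather than by their mRNA level, stood at 415 against 481 CPM, a log2 ratio of -0.21 (-0.49 to 0.05), and the 11 other AP-1 and partner factors at 586 against 515 CPM, a log2 ratio of 0.19 (-0.05 to 0.42). Heat shock and dissociation stress genes, a list of 13 chaperones, some of which respond to misfolded protein and to tissue handling, were also higher in the cells with Fos, 4308 against 2532 CPM, a log2 ratio of 0.77 (0.68 to 0.86). Metallothioneins stood at 583 against 418 CPM, a log2 ratio of 0.48 (0.24 to 0.71). Within the heat shock list the inducible Hspa1a stood at 107 against 19.1 CPM, a log2 ratio of 2.49 (1.73 to 3.27), a larger ratio than that of the list. In fibroblasts the same list gave 8077 against 3800 CPM, a log2 ratio of 1.09 (0.80 to 1.38). There the fibroblast markers moved too, 12836 against 17014 CPM, a log2 ratio of -0.41 (-0.57 to -0.24), as did osteoblast and osteocyte markers, with a log2 ratio of 0.41, and globins, with 0.46. Median depth was 10456 UMIs in fibroblasts with Fos and 7362 in those without, 2 and 0 of which were called doublets, and the part of these in the result was not tested. Whether digestion, sorting or the state of the cells in the animal gave these levels was not tested, since no undigested sample was compared here.

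Both sets of cells had passed the gate on Lepr and Cxcl12, and Cxcl12 itself stood at 18680.1 against 22638 CPM, a log2 ratio of -0.28 (-0.32 to -0.24), and Lepr at 1421 against 1608 CPM, a log2 ratio of -0.18 (-0.32 to -0.04). The 6 LEPR stromal markers that the gate did not use summed to 7007 against 7441 CPM, a log2 ratio of -0.09 (-0.15 to -0.02), and they did not all go one way. Adipoq, the adiponectin gene, stood at 1022 against 1147 CPM, a log2 ratio of -0.17 (-0.34 to 0.0033) and Kitl, the stem cell factor gene, at 1868 against 1695 CPM, a log2 ratio of 0.14 (0.01 to 0.27). Malat1, a nuclear RNA, was higher beside Fos at 88259 against 76903 CPM, a log2 ratio of 0.20 (0.18 to 0.22), and its part in the result was not tested. Fibroblast markers stood at 689 against 729 CPM, a log2 ratio of -0.08 (-0.29 to 0.12) and endothelial markers at 7.44 against 15.2, neither of them higher beside Fos beyond counting error. Osteoblast and osteocyte markers stood at 3559.5 against 3378 CPM, a log2 ratio of 0.08 (-0.02 to 0.17). Neutrophil markers, which the sort should remove, were low but higher beside Fos, 43.2 against 10.2 CPM, a log2 ratio of 2.07 (0.92 to 3.23), and their part in the result was not tested. Globins stood at 1568 against 1820.1. Depth was close, with a median of 5514 UMIs in the cells with Fos and 5392 in the rest, and the mitochondrial share was lower, 3.001% against 3.58%. Doublets were called for 8 of 336 and 45 of 1415 cells. In erythroid cells the picture differed: the 116 cells with Fos had 401 CPM of LEPR stromal markers against 101 in the rest, a log2 ratio of 1.99 (1.53 to 2.42). Fibroblast markers there stood at 51.7 against 5.24 CPM, a log2 ratio of 3.30 (1.76 to 4.58). Osteoblast and osteocyte markers had a log2 ratio of 2.33 (1.12 to 3.34) and endothelial markers one of 0.07 (-3.00 to 1.96). Whether the Fos UMIs of these erythroid cells came from stromal RNA was not tested.

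**Figure D5:**
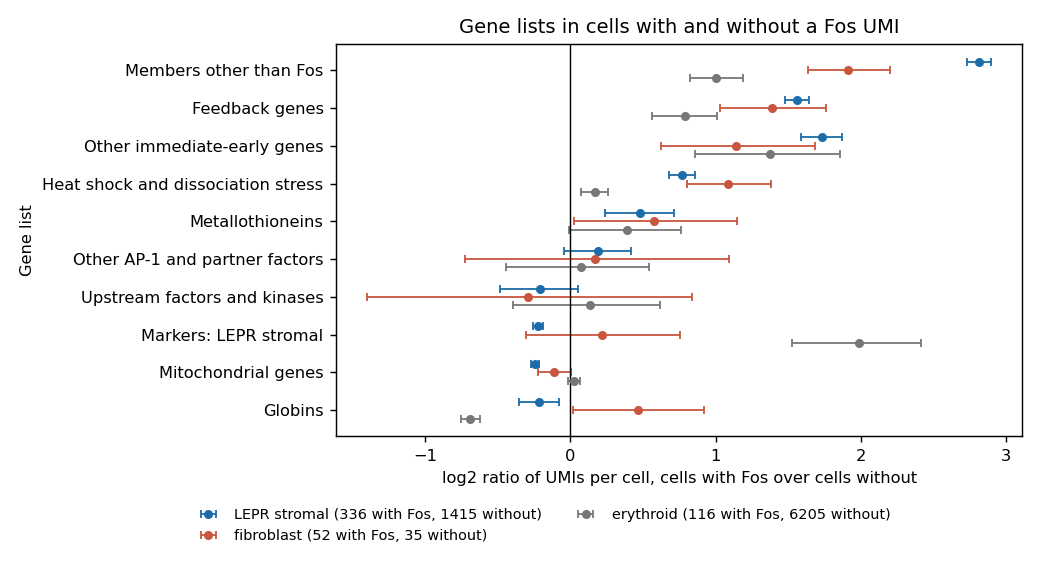
Log2 ratio of summed UMIs per cell at equal depth, cells with a Fos UMI over cells without, for gene lists (vertical axis) in 3 classes, with 95% intervals for counting error. The other 9 members reach 2.82 in LEPR stromal cells, feedback genes 1.56 and heat shock genes 0.77, and in erythroid cells the LEPR stromal markers reach 1.99.

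The genes most like the members across LEPR stromal cells included feedback and immediate-early genes. Pearson's r between log2(1 + UMIs) of a gene and log2(1 + summed UMIs of the 10 members), over the 1751 thinned cells and 2740 genes found in at least 10% of them, had a median of -0.0080 over all genes. Among the 10 highest were Btg2 at 0.59, Ier5 at 0.52, Gadd45b at 0.46, Gadd45g at 0.45, Btg1 at 0.44, Hexim1, an inhibitor of the elongation factor P-TEFb, at 0.44, Nabp1 at 0.43 and Ier5l at 0.41. Of the 10, 5 were in the feedback or immediate-early lists, which held 10 and 6 of the 2740 genes compared. These lists were chosen with earlier results of these data known, so the overlap is a description only. Over all genes of a list found in at least 10% of cells, the median r (with its range) was 0.29 (0.12 to 0.59) over 10 feedback genes, 0.26 (0.09 to 0.52) over 6 other immediate-early genes and 0.11 (-0.01 to 0.36) over 7 heat shock genes, so the lists overlapped. Among the heat shock genes, Dnaja1 at 0.36 and Hsp90aa1 at 0.36 lay above most feedback and other immediate-early genes, for example above Errfi1 at 0.29, while Hspd1 stood at -0.001 and Hspe1 at -0.011, and the lowest r of all genes was that of Cxcl12, -0.29. Among the members themselves, r with the sum of the other 9 ran from 0.20 for Atf3 to 0.69 for Egr1, with 0.67 for Fos and 0.59 for Jund. The cells share a library and a depth, and the counts are sparse.

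Across classes, the lists around the members did not all follow them. Over all genes, 23.8% stood at least 2-fold higher and 8.58% at least 2-fold lower in LEPR stromal cells than in fibroblasts, and 46.5% and 19.4% than in erythroid cells, and the counts of the lists stand beside these shares. Other immediate-early genes, LEPR stromal cells against fibroblasts, had 0 genes at least 2-fold higher and 7 at least 2-fold lower out of 12 with 50 UMIs or more, and against erythroid cells 10 genes at least 2-fold higher and 0 at least 2-fold lower out of 12 with 50 UMIs or more. Of the 4 with the highest LEPR stromal level, Ier5 stood at 206 CPM in LEPR stromal cells and 174 in fibroblasts, Ccn1, a secreted matricellular protein, at 179 and 397, Klf6 at 158 and 248, and Rhob at 156 and 163. Nr4a1, an orphan nuclear receptor gene named after its values were seen, stood at 8.19 in LEPR stromal cells and 194 in fibroblasts. Feedback genes had 1 genes at least 2-fold higher and 7 at least 2-fold lower out of 15 with 50 UMIs or more against fibroblasts and 11 genes at least 2-fold higher and 0 at least 2-fold lower out of 16 with 50 UMIs or more against erythroid cells. Zfp36l1, an RNA decay factor, stood at 634 in LEPR stromal cells, 556 in fibroblasts and 57.9 in erythroid cells, and Errfi1, an inhibitor of the EGF receptor, at 503, 522 and 2.36. Other AP-1 and partner factors had 0 genes at least 2-fold higher and 3 at least 2-fold lower out of 8 with 50 UMIs or more against fibroblasts and 7 genes at least 2-fold higher and 0 at least 2-fold lower out of 9 with 50 UMIs or more against erythroid cells, with Atf4 at 190.4 in LEPR stromal cells, 238 in fibroblasts and 183 in erythroid cells. Upstream factors and kinases had 2 genes at least 2-fold higher and 0 at least 2-fold lower out of 10 with 50 UMIs or more against fibroblasts, about the shares over all genes, and 7 genes at least 2-fold higher and 0 at least 2-fold lower out of 10 with 50 UMIs or more against erythroid cells. Heat shock genes ran the other way from the members between LEPR stromal and erythroid cells, 2 genes at least 2-fold higher and 9 at least 2-fold lower out of 13 with 50 UMIs or more against erythroid cells, and the same way between LEPR stromal cells and fibroblasts, 0 genes at least 2-fold higher and 7 at least 2-fold lower out of 13 with 50 UMIs or more against fibroblasts. Their summed level was 2977 CPM in LEPR stromal cells, 6893 in fibroblasts, 6459 in megakaryocytes and 8383 in erythroid cells. In this sum fibroblasts stood above megakaryocytes, as for the members. The sums rest much on abundant chaperones. Hspa8 and Hsp90ab1 stood at 725 and 845 in LEPR stromal cells and at 1967 and 2521 in erythroid cells. Hspa1a stood at 38.6 in LEPR stromal cells, 773 in fibroblasts and 80.4 in erythroid cells. The part of handling in these levels was not tested. The metallothioneins Mt1 and Mt2, which bind metal and respond to stress, stood at 330.4 and 136 in LEPR stromal cells and at 1136 and 625 in fibroblasts.

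Within LEPR stromal cells the members moved with the mitochondrial share and with depth. Summed, they stood at 3454 CPM (3398 to 3509.7, n = 1368 cells) in cells with at most 5% mitochondrial UMIs, at 2521 CPM (2419 to 2626, n = 416 cells) from 5 to 10% and at 1573 CPM (1396 to 1766, n = 93 cells) from 10 to 20%. The order did not go on above the limit, where the barcodes left out for over 20% stood at 2697 CPM (2265 to 3188, n = 19 cells). Up to the limit Fos had the same order, from 524 to 262 and 209 CPM. Cells with more mitochondrial RNA were also shallower, with medians of 5786, 3789 and 2349 UMIs. By depth the level was lowest at both ends, 2072 CPM (1874 to 2284, n = 210 cells) under 2500 UMIs, 3699 CPM (3595 to 3806, n = 666 cells) from 2500 to 5000, 3380.2 CPM (3314 to 3447, n = 854 cells) from 5000 to 10000 and 2382 CPM (2285 to 2482, n = 147 cells) from 10000 upwards. The part of cell damage in these levels was not tested.

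Globin mRNA accumulates as erythroid cells mature, and along it Jun, Junb and Fos stood lower at a high globin share while Jund did not. From cells with under 0.5% globin UMIs to those with 6% or more, Jun stood at 290.1 and 154 CPM, Junb at 143 and 52.5, and Fos at 18.5 and 4.13. Jund stood at 339 and 346. To each 1000 Cxcl12 UMIs, a stromal transcript that erythroid cells should lack, erythroid barcodes held 183 Fos UMIs and 3538 Jun UMIs, against 21.1 and 17.5 in LEPR stromal cells and 5681 and 4546 in fibroblasts. The part of RNA from other cells in the erythroid values was not tested.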

How the data were processed

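Both deposited replicates of the pooled sample (called lanes here) gave 1 matrix each of UMI counts, genes by called barcodes, which the authors made with Cell Ranger on mm10 and deposited without normalization. The header of the deposited counts names software version 3.0.2, while the methods name a later Cell Ranger version. Lane 1 held 116827845 and lane 2 held 120556381 UMIs. 32158 of 32285 gene identifiers are in GENCODE M21.

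Lanes were summed per barcode, barcodes with under 200 genes or over 20% mitochondrial UMIs were left out, and a barcode meeting the LEPR gate was LEPR stromal whatever other gate it met. Barcodes meeting more than 1 of the fibroblast, endothelial and megakaryocyte gates were left out of these classes, and erythroid cells met the gate on 11 erythroid markers without globins. CPM are summed counts over summed totals. Intervals (95%) were exact Poisson, conditional binomial or Clopper-Pearson, and a count of 0 allows up to 3 counts. Scrublet in scanpy 1.11.5 called 230 of 9573 barcodes doublets, which were kept, at an expected rate of 8%, with Python 3.11.15, scipy 1.17.1, while clusters (resolution 0.8) came from R 4.3.3, sctransform 0.4.2 and Seurat 5.3.0. Functions were tested on simulated data. With 1 pool there was no test between samples, hence no p-values.

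The members and all lists were chosen with earlier results of these data known. Genes named are the members, the 10 most alike by r (some of which are not reported here), and up to 4 of each list by LEPR stromal level; other named list genes were chosen after their values were seen. Alternatives were a mitochondrial limit of 10%, at least 500 genes, each lane alone, called doublets removed, Cxcl12 gates of 2000 and 10000 CPM, the mean of each cell's value, classes from clusters, thinning to 1000 UMIs or none and, chosen after seeing the data, leaving out the barcode with most member UMIs, or most UMIs of the gene, in each class or LEPR stromal barcodes that met another gate, and other draws of the thinning.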

Additional observations from a re-analysis of the deposited data

Results flagged for a closer look

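Signal of these genes also appeared in barcodes that no comparison used. The 791 kept barcodes in no class had a summed level of 4807 CPM (4829.9 in lane 1 and 4786 in lane 2), above the level in LEPR stromal cells, beside 88832 CPM of plasma cell markers and 2249 of neutrophil markers, whose part in this level was not tested. The 19 barcodes that met the LEPR gate but held over 20% mitochondrial UMIs had 2697 CPM (2895 and 2507 by lane, interval 2265 to 3188), from 145 and 130 UMIs.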

How the results depend on the processing

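The summed ratios of LEPR stromal to endothelial cells and of megakaryocytes to erythroid cells, which lay near 0, turned their sign, and so did 14 of 430 recomputed ratios of single genes, 9 of them against endothelial cells and none past 2-fold as reported or recomputed (reported sizes up to 0.74). All 283 recomputed ratios of single genes past 2-fold in the reported analysis kept their direction and stayed past 2-fold, over 11 alternatives, and the number of the 40 ratios past 2-fold was 26 as reported and ran from 26 to 30 over the settings. With each lane alone (the other left out) the summed log2 ratios ran from -1.95 to -1.86 for LEPR stromal cells against fibroblasts, -0.23 to -0.16 against endothelial cells, 1.79 to 1.89 against megakaryocytes and 1.92 to 1.99 against erythroid cells. Against erythroid cells the summed ratio was 2.04 with a mitochondrial limit of 10%, 2.06 without called doublets, 1.94 with a Cxcl12 gate of 10000 and 2.03 without LEPR stromal barcodes that met another gate. With a Cxcl12 gate of 2000 it was -2.01 against fibroblasts, 1.73 against megakaryocytes and 1.86 against erythroid cells. With the mean of each cell's value it was -1.81, 2.16 and 1.56 in the same order, and 0.24 against endothelial cells. Without the barcode with most member UMIs in each class it was 0.19 against endothelial cells. With classes from clusters it was -1.39 against fibroblasts, 1.65 against megakaryocytes and 2.12 against erythroid cells, and no cluster was named endothelial, so that comparison gave no value. Fibroblasts by cluster numbered 140 against 88 by gates. Whether they took in the 54 gated endothelial cells was not tested, which bears on the value against fibroblasts here and on that of Jund with these classes. The median ratio of observed to expected pairs in LEPR stromal cells was 2.38 as reported, 2.80 at 1000 UMIs and 2.09 without thinning, and the median share of cells with a UMI over the 10 genes was 16.4%, 12.3% and 22.2%. The cause of these shifts was not tested beyond what the settings themselves change. No paired analysis was possible because there is 1 group and both replicates were read as runs of the same cells. Depth limits the shares, as the values at 1000 and 2000 UMIs show, and 1 pool of mice leaves the spread between animals unknown.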
